A study of Mus musculus with 2 samples.

Results

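The Myc, Max and Mxd network is a family of transcription factors of the basic helix-loop-helix leucine zipper type. Its members were taken as the 8 genes Myc, Mycn, Max, Mxd1, Mxd3, Mxd4, Mxi1 and Mnt, found by their symbol in the array's probe annotation. Each was read by 1 probe, among 10208 distinct gene symbols on 10349 named probes. RNA came from 1F9, a mouse line grown from a thymoma of an animal without E2A, the gene that encodes the E proteins E12 and E47. Since both groups are E2A -/-, no E2A product of the cells' own was present on either side of the comparison. One group (E47-ER, +ER47TX in the titles) had received a retrovirus with E47 joined to an oestrogen receptor part. The other (bHLH-ER, +bHLHERTX) had received the bHLH region joined in the same way but without the N-terminal transactivation domain. Both were treated with 4-hydroxytamoxifen for 6 hours from 1 day after infection and selected on beads for the human CD25 that both viruses encode. There was 1 single-colour (Cy3) array per construct, from 1 cell line. The construct on each array was taken from its title, because the free-text descriptions of both name the E47 fusion. The differences below therefore have no replicates behind them and no p-value can be given. The effect of a construct cannot be told apart from other ways in which the 2 cultures or arrays may differ.

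Max is the shared partner of this network. Paired with Myc or Mycn it binds the E-box CACGTG and activates genes of growth and division. Paired with Mxd1, Mxi1, Mxd3, Mxd4 or Mnt it binds the same letters and recruits the Sin3 corepressor with its histone deacetylases. In developing T cells Myc is needed for the growth and division that follow pre-TCR and Notch signals, while Mxd proteins are known mainly from cells that leave the cycle and differentiate.

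Mxd4 was the only one of the 5 measured members that differed by 2-fold or more, and it was higher with E47-ER. Myc was the only measured member with a negative difference, at 1.25-fold lower. Max, Mxd3 and Mxi1 lay between these, all slightly higher and between 1.13-fold and 1.23-fold. Mycn, Mxd1 and Mnt were dim on both arrays. A gene counts as measured here where the mean of its log2 values is not under the median over all probes, which corresponds to an intensity of about 1.03 in the scaled units of the deposited table. All 8 members had a positive value on both arrays, and 5 of the 8 passed this limit.

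RefSeq promoter windows of build GRCm38.p6 were matched by symbol for 7 of the 8 members, in 9 windows. No window was available for Myc, so its promoter was not searched. Each window holds 250 bases before the annotated start and 50 after it. They were searched on both strands for CACGTG, the E-box of the Max dimers, and for CAGCTG and CAGGTG, E-boxes that E proteins bind. CACGTG was found once each in Max, Mxd4 and Mnt. In Max the letters straddle the start, from base 3 before it to base 3 after it. Of all 32851 windows in the table, 7.15% hold CACGTG, 16.3% hold CAGCTG and 20.2% hold CAGGTG. Neither E protein motif was found in the 9 member windows, which says only that these letters are not in these windows. The 250 bases before the start of Mxd4 (chr5:34187711-34187960, minus strand, 58.0% G and C) are shown because Mxd4 is the member past 2-fold, and the 30 bases around the match in Mnt (chr11:74830789-74830818, plus strand) for comparison. Both run 5′ to 3′ on the gene's strand, and capitals mark CACGTG, which begins 219 bases before the start in Mxd4 and 123 bases before it in Mnt.
Mxd4: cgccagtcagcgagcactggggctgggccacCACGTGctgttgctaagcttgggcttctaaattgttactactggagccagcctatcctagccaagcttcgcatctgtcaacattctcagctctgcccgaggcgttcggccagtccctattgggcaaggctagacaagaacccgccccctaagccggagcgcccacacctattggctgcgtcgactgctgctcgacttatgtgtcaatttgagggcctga
Mnt: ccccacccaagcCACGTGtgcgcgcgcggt
A match is a description of the sequence and not a binding site. Whether these letters have a part in any difference between the arrays was not tested.

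Intensities were compared as log2 values centred on each array's median, and a difference is always the E47-ER array minus the bHLH-ER array. The medians of all probes before centring were 0.950 and 0.939 for the bHLH-ER and E47-ER arrays, and the 75th percentiles were 6.19 and 6.61. Of the 5563 measured genes, 1.35% were 2-fold higher or more, 0.27% were 2-fold lower or more, and 66.7% had a positive difference. Their median difference was 0.11, which is the middle against which the values below should be read. Different probes of one gene, present for 55 measured genes, had log2 differences with a pooled SD of 0.20, a figure that includes error of probe design and of spots and leaves out how far cultures differ. E47 itself has no named probe (Tcf3, the symbol of the E2A gene). Id2, an inhibitor that binds E proteins and that they can induce, had intensities of 24.2 and 160 (bHLH-ER first, as throughout). Esr1, the oestrogen receptor alpha gene, had 7.87 and 17.3, a log2 difference of 1.15. Both viruses carry a receptor part, and whether this probe reads it is not known here. Whether the 2 cultures held unequal amounts of construct RNA was not tested.

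The cells carried the RNA of the labelled lineage. All 11 T lineage markers with a named probe were measured, with summed intensities of 322 and 483. The CD3 chain genes Cd3d and Cd3g went from 46.9 to 59.1 and from 64.8 to 98.0, and the pre-TCR alpha gene Ptcra, the highest of the list, from 7.32 to 30.8. The recombinase gene Rag1 (52.1 and 104) was also past 2-fold after centring, but not with the values as deposited. With equal 75th percentiles its log2 difference was 0.905. Cd3e was lowest at -0.47 (23.1 and 16.4), and Bcl11b was also lower, at -0.40 (4.79 and 3.59). The other 9 of the 11 were positive, against 66.7% of all measured genes, with Cd247 nearly level at 0.06. Of the 7 B lineage markers, 3 were measured, with sums over all 7 of 18.8 and 16.2. Most of that sum came from Cd79a, at 14.7 and 12.7, and the B lineage factor genes Pax5 and Ebf1 were at -0.32 and -0.12. Sums were 1.68 and 2.25 over the 5 myeloid markers with a value, and 2.85 and 2.29 over 4 erythroid markers. They were 0.551 and 0.418 over 5 NK and cytotoxic markers, and 4.18 and 4.83 over 4 fibroblast markers. Only Itgam (0.866 and 1.44) and Sparc (3.55 and 4.0) of these last 4 lists were measured. The part of any of these shifts in the results below was not tested.

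**Figure D1:**
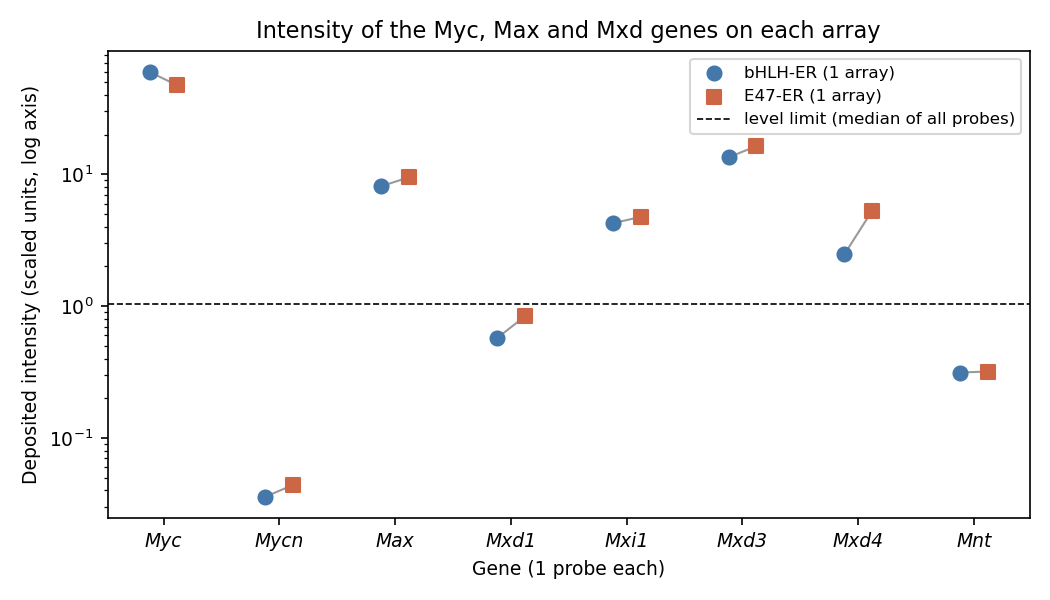
Deposited intensity (scaled units, log axis) of the 8 member genes, 1 probe each, on the bHLH-ER array (circles) and the E47-ER array (squares); grey lines join the values of a gene and the dashed line is the level limit of 1.03. Mxd4 has the steepest upward slope, from 2.47 to 5.28, Myc alone slopes down, from 59.7 to 47.2, and Mycn, Mxd1 and Mnt lie under the limit on both arrays; heights of different probes are not comparable.

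Among the activating members, Myc (Entrez gene 17869), the driver of growth and ribosome production in dividing lymphocytes, had an intensity of 59.7 on the bHLH-ER array and 47.2 on the E47-ER array. It was bright on both and lower with E47-ER, with a log2 difference of -0.33. Its distance of 0.43 below the middle of the measured genes is 2.13 times the pooled SD between probes of one gene. Of the 5563 measured genes, 5.11% had a smaller difference than Myc. Among the 500 probes nearest to it in level, named or not, 22 had a smaller difference, and the middle 95% of those probes ran from -0.43 to 0.64. The difference of Myc thus sits low but inside the range of probes of the same brightness.

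Mycn (Entrez gene 18109), the form of Myc used mainly in early progenitors and neural tissue, gave 0.0359 and 0.0441. Both values are close to 0, and no fold is given. The 500 probes nearest in level had differences with a robust SD of 1.48, so the log2 difference of 0.31 is far inside the scatter at that brightness. Mycl, the third Myc gene and not one of the 8, was also under the limit, at 0.644 and 0.731.

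Max (Entrez gene 17187), the shared partner of the network, had 8.13 and 9.49. Its log2 difference of 0.24 lay close to the median of 0.12 of the 500 probes nearest in level, of which 156 had a larger difference. It was 1.18-fold higher with the medians set equal, and 29.0% of measured genes had a larger difference. No change in Max could be seen beyond the scatter of probes at its brightness.

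Mxd4 (Entrez gene 17122), a Max partner that represses through Sin3, had 2.47 on the bHLH-ER array and 5.28 on the E47-ER array, both above the level limit. The ratio of the deposited values is 2.14. After centring, the level was 2.16-fold higher with E47-ER, a log2 difference of 1.11. The log2 difference lies above the middle of the measured genes by 4.96 times the pooled SD between probes of one gene. That SD is taken over measured genes of any brightness, and the 500 probes nearest in level had a larger robust SD of 0.28. A larger difference was found in 51 measured genes, or 0.917% of them. Among the 500 probes nearest in level 8 had a larger difference, and the middle 95% ran from -0.60 to 0.84. Mxd4 was therefore outside that range and also past the 2-fold rule, but only just: with equal 75th percentiles its log2 difference was 1.003, after quantile normalization 1.04 and after loess on level 1.04. With an offset of 0.5 added before taking logs, which shrinks differences of dim probes, it was 0.97 and so under 2-fold.

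The other measured repressing members, Mxd3 and Mxi1, were nearly level. Mxd3 (Entrez gene 17121), the Mxd gene known from cells in S phase rather than from differentiated ones, had 13.5 and 16.3, a log2 difference of 0.30. Of the 500 probes nearest in level 119 had a larger difference. Mxi1 (Entrez gene 17859), a Max partner first found as an antagonist of Myc, had 4.25 and 4.75, a log2 difference of 0.17 that 172 of its 500 nearest probes exceeded. Both were higher with E47-ER by less than 1.25-fold, and both lay within the middle 95% of probes of their brightness.

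Mxd1 (Entrez gene 17119), the Mxd gene induced as many blood cells mature, had 0.572 and 0.835, under the level limit on both arrays. Its log2 difference was 0.56, which 14 of the 500 nearest probes exceeded, and the middle 95% of those probes ended at 0.60. The offset brought it to 0.33. Mnt (Entrez gene 17428), a Max partner made in most cells whether or not they divide, had 0.314 and 0.319, nearly equal. Its log2 difference was 0.04, and it turned to -0.07 with equal 75th percentiles. No direction is read for the 3 members under the limit.

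**Figure D2:**
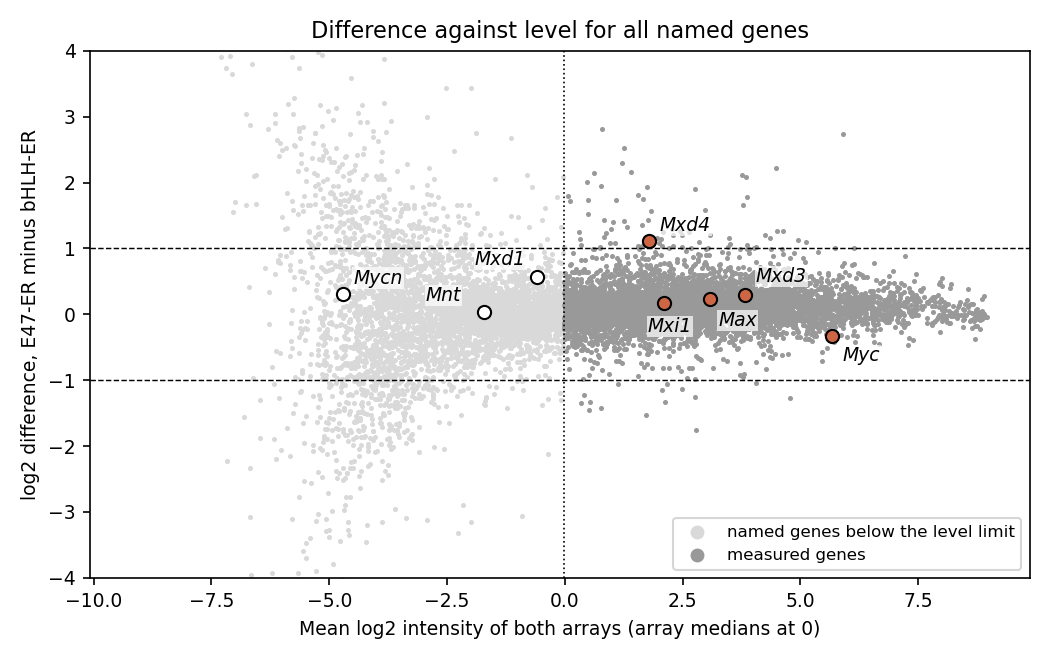
Log2 difference (E47-ER minus bHLH-ER) against mean log2 intensity of both arrays for named genes; dark grey, measured genes; light grey, genes below the level limit (dotted line); circles with names, the 8 members, filled where measured; dashed lines, 2-fold. Mxd4 lies above the upper line at 1.11, Myc at -0.33 near the lower edge of the cloud at its level, and the scatter widens towards dim genes; 49 genes past 4 in either direction are off the axis.

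Counted as a group, 1 of 5 measured members passed 2-fold upward and 0 passed it downward, against 1.62% of all measured genes in either direction. A count of 1 gene carries no more than the value of Mxd4 itself. Positive differences were found in 4 of 5, against the 66.7% background, so the share of positive members says little. With equal 75th percentiles 4 of 5 were positive, against 49.7% of all measured genes. The median of the 5 was 0.24 against 0.11 for all measured genes.

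Ratios between members within an array do not depend on how the arrays were scaled to each other by a constant. Relative to Myc, the Mxd4 signal was 2.71-fold higher on the E47-ER array than on the bHLH-ER array, a log2 change of 1.44. The probe SD for a difference between 2 genes is 0.29 on that scale, taken over measured genes of any brightness. The 500 probes nearest to Mxd4 in level had a robust SD of 0.28 for a single difference. An offset is not scaling by a constant: with 0.5 added before logs Mxd4 was at 0.97 and Myc at -0.33. Relative to Max, Mxd4 was 1.83-fold higher (0.87). Mxd4 was also 1.76-fold higher relative to Mxd3 (0.82) and 1.91-fold higher relative to Mxi1 (0.94). Myc was lower relative to Max by 1.48-fold, with a log2 change of -0.56. Max, Mxd3 and Mxi1 had ratios to each other that changed by between 1.04-fold and 1.09-fold. All 3 lay well inside the scatter of probes of their brightness, so these small changes show no joint behaviour. These ratios show unequal change between probes and not which of the pair changed. Pairs were compared after the values of the members were known.

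**Figure D3:**
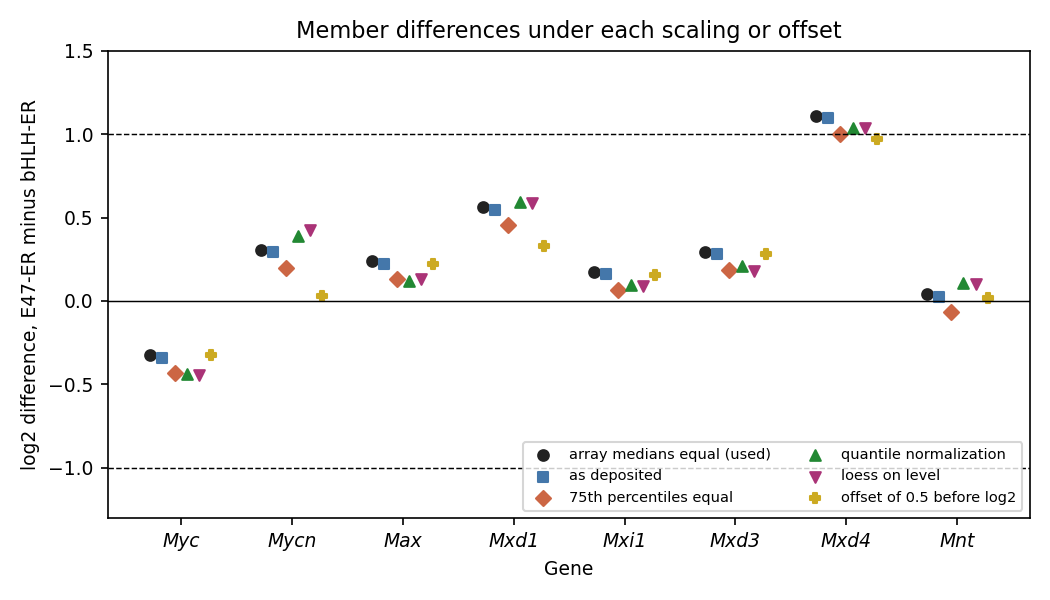
Log2 difference (E47-ER minus bHLH-ER) of each member gene with the array medians equal, as deposited, with equal 75th percentiles, after quantile normalization, after loess on level and with an offset of 0.5; dashed lines, 2-fold. Myc stays below 0 and Max, Mxi1, Mxd3 and Mxd4 above 0 in all 6, Mxd4 crosses under the 2-fold line with the offset at 0.97, and Mnt crosses 0.

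Other genes that act with the network were near the middle of the arrays. In the wider Max and Mlx network, 2 of 5 genes were measured: Mlx, the partner of the glucose-sensing Mondo proteins, at 0.14 and Mlxipl, one of those proteins, at -0.12. Of 9 other E-box factors of the same structural type 5 were measured and 0 passed 2-fold, as against 1.62% of all measured genes, so the count says nothing about them. Their median was 0.16. They ran from Tfap4 at -0.21 (1.84 and 1.57) to Tfeb, a regulator of lysosome genes, at 0.28 (1.20 and 1.44). The difference of 1.11 of Mxd4 was above that of each measured gene among these related factors, a comparison of single probes with no test.

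Of 18 listed genes of the Sin3 corepressor, through which Mxd proteins and Mnt act, 11 were measured and 0 passed 2-fold. With 1.62% of all measured genes past 2-fold, counts of 0 in lists of this size, here and below, say nothing particular about them. Positive differences were found in 6 of the 11, against 66.7% of all measured genes, and the median was 0.00. Sap30, a Sin3 subunit, was lowest at -0.41 (45.3 and 33.9), and Ogt, the enzyme that adds single sugars to nuclear proteins and binds Sin3, was highest at 0.44 (7.20 and 9.67). The scaffold gene Sin3a had 8.67 and 7.80, and the deacetylase genes Hdac1 and Hdac2 had differences of 0.11 and -0.01. Under equal 75th percentiles, which shifted all genes by -0.11, 2 of the 11 were positive, against 49.7% of all measured genes. The list median was then -0.11, a move smaller than the probe SD of 0.20, and Hdac1 turned from 0.11 to -0.002. Of 17 coactivators and partners of Myc, 9 were measured with a median of 0.08 and none past 2-fold. Ruvbl2, an ATPase of chromatin complexes, was lowest at -0.30 and Smarcb1, a SWI/SNF subunit, highest at 0.24. Zbtb17, which encodes the Myc partner Miz-1, was at 0.14.

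Genes that set the lifetime of the Myc protein were measured for 7 of 17 listed, with a median of 0.18 and none past 2-fold. Fbxw7, the ubiquitin ligase subunit that marks phosphorylated Myc for destruction, had the highest difference, 0.65 (3.87 and 6.01, 1.57-fold higher). Cip2a, an inhibitor of the phosphatase that destabilises Myc, was at 0.42 (19.3 and 25.5). Set was lowest at -0.17, and the kinase gene Gsk3b, whose product creates the Fbxw7 mark, was at -0.11. The arrays measure RNA, and the Myc protein was not measured.

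Genes known to be induced by Myc were mostly level. Their counts are read beside all measured genes, of which 66.7% were positive and 1.35% were 2-fold higher or more. Of 25 ribosome biogenesis genes 19 were measured, none was past 2-fold, 12 were positive and the median of 0.12 was close to the 0.11 of all measured genes. Rrs1, a ribosome assembly factor, was highest at 0.59 (9.04 and 13.5), and Polr1b, an RNA polymerase I subunit, lowest at -0.21 (10.5 and 9.0). The nucleolar protein genes Ncl and Npm1 had differences of -0.14 and -0.01. Of 35 metabolism and growth genes 23 were measured, with 11 positive, against 66.7% of all measured genes, and a median of 0.00. Slc1a5, a glutamine transporter, was 2.04-fold higher (2.28 and 4.61), a log2 difference of 1.03 that was 0.92 under equal 75th percentiles. The lactate dehydrogenase gene Ldha was lowest at -0.36 (188 and 146), and the polyamine enzyme gene Odc1, a classic Myc target, stood at -0.03. Of 15 cell cycle genes 10 were measured, with 8 positive and a median of 0.20. Id2, which both Myc and E proteins can induce, was the only one past 2-fold, at 6.65-fold higher. Ccne1, the cyclin E1 gene, was at 0.96 (4.43 and 8.56), and Cul1, a ubiquitin ligase scaffold, was lowest at -0.23.

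Genes known to be repressed by Myc had larger positive differences. Of 15 listed 7 were measured, 2 passed 2-fold, both upward, where 1.35% of all measured genes did. Positive differences were found in 6 of the 7, against 66.7% of all measured genes. The median was 0.87 against 0.11 for all measured genes. Gadd45a, a growth arrest and DNA damage gene, had 15.2 and 36.2, and was 2.40-fold higher. Cdkn1a, which encodes the CDK inhibitor p21, had 1.23 and 2.48, a log2 difference of 1.03 that was 0.92 with equal 75th percentiles. The antiproliferative gene Btg2 had 31.4 and 59.5, a log2 difference of 0.94. Ndrg1, a gene of differentiation and stress, was at 0.87 (1.15 and 2.08) and the CDK inhibitor gene Cdkn1c at 0.72 (1.97 and 3.22). Ndrg2 was at 0.09 and Gadd45g lowest at -0.03. Whether Myc had a part in the levels of these genes was not tested. The list holds few measured genes, and 5 of its members with a probe were under the level limit. Like the other lists it was chosen with earlier results of these data known, so setting it beside all measured genes is no test. With equal 75th percentiles 1 of the 7 passed 2-fold, and the median was 0.77.

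Among genes known to act upstream of Myc in T cells, those past 2-fold were lower with E47-ER. Of 15 listed 10 were measured and 2 passed 2-fold, both downward, where 0.27% of all measured genes did. The median was 0.30, against 0.11 for all measured genes. Foxo1, a forkhead factor that opposes Myc in several cell types, had 5.83 and 2.003 and was 2.88-fold lower. Il2ra, the interleukin 2 receptor alpha chain, had 44.4 and 18.2 and was 2.41-fold lower. Both viruses encode the human form, and whether the mouse probe reads it is not known here. Notch3, a receptor of a pathway that induces Myc in thymocytes, was highest at 0.83 (1.06 and 1.86). Lef1, a nuclear partner of beta-catenin, was at -0.32 (4.33 and 3.43) and Ctnnb1, the beta-catenin gene, at 0.38. No probe is named Notch1 or Tcf7. Over the 10 lists around the network, 103 of 171 genes were measured, 4 passed 2-fold upward and 2 passed it downward, against 1.35% and 0.27% of all measured genes. The lists were chosen with earlier results of these data known.

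**Figure D4:**
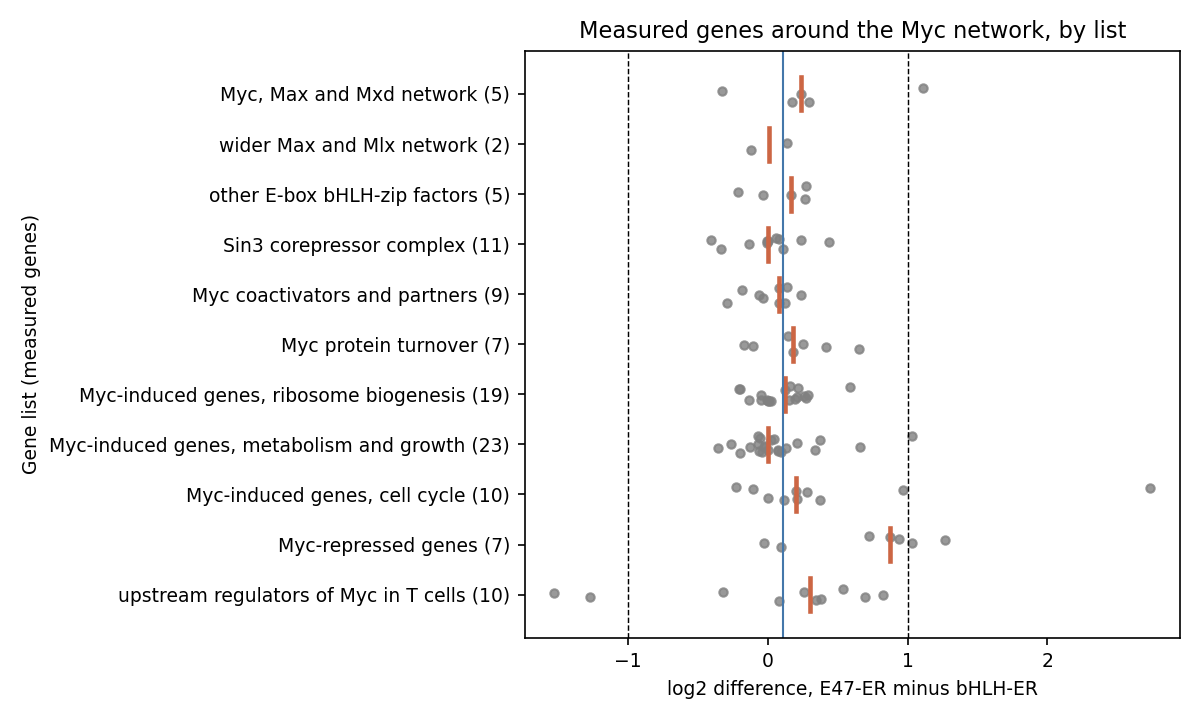
Log2 difference (E47-ER minus bHLH-ER) of each measured gene (grey points, vertical scatter without meaning) in the network and the 10 lists around it, with the number measured in brackets; orange bars, list medians; blue line, the median of 0.11 of all measured genes; dashed lines, 2-fold. Most medians lie near the blue line, that of the Myc-repressed genes lies at 0.87, and Id2, Foxo1 and Il2ra stand farthest out.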

How the data were processed

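The deposited table holds 1 linear intensity per probe for each of 2 arrays, 20289 probes in all. The deposited intensities range from -0.0829 to 555 with medians near 1, so they appear background-subtracted and scaled by the authors, a step that the labels do not describe. The table has no detection calls or control marks. Probes with a positive value on both arrays (19621) were kept, put on the log2 scale and centred on each array's median. Symbols came from the platform annotation, matched through Entrez IDs to the RefSeq table of GRCm38.p6 (10349 of 10349 named probes matched, 9940 probes unnamed). Probes of one gene were averaged. Genes were called at 2-fold, with no test, since each group has 1 array, and the number of arrays limits the precision. The members and lists were chosen with earlier results of these data known. Named genes are the 8 members, Tcf3, Id2 and Esr1, and from each list up to 3 genes past 2-fold per direction and the highest and lowest; other examples were chosen with their values in view. Alternatives were other scalings, level filters, an offset and the brightest probe. The gene table was tested on simulated data. Python 3.11.15, pandas 2.3.3 and statsmodels 0.14.6 were used.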

Additional observations from a re-analysis of the deposited data

How the results depend on the processing

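Level filters and the choice of probe cannot move a member with 1 probe; over the 6 settings that can, the log2 difference of Mxd4 was 1 or more in 5, with a range from 0.97 to 1.11; the number of members called fell from 1 to 0 with the offset of 0.5, and also with a limit at the 75th percentile of level, which leaves 3 members and removes Mxd4 itself. Members with a positive difference numbered 2 of 3 under that limit, 6 of 7 with the limit at the 25th percentile and 7 of 8 with none, by construction of the set. The share of all measured genes past 2-fold was 0.984% under that limit and 9.21% with none, where dim probes enter. Equal 75th percentiles shifted all genes by -0.11, so that 49.7% rather than 66.7% were positive and 0.935% were 2-fold higher and 0.431% lower. The other 30 recomputed values of the main counts, the network median and the share called moved by at most 1.5 times (counts and share) or by less than the probe SD of 0.20 (median). For single members and the other lists, 295 recomputed values stayed within these bounds and 25 moved further. The 295 include level filters and the choice of probe, which could not move a single member. Signs were checked only for Mxd4, the member past 2-fold, which kept its sign. Values near 0 changed sign within these bounds. With equal 75th percentiles Mnt went from 0.04 to -0.07 and the median of the Myc coactivators from 0.08 to -0.03. Myc ranged from -0.44 to -0.33. No paired analysis was possible because each group has 1 array. Weak signal over background limits Mycn, Mxd1 and Mnt, and 1 array per construct limits every value.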
